A study of Mus musculus with 8 samples.

Results

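Rab GTPases are small membrane-bound switches, and the genes of the mouse family were followed in bone marrow-derived macrophages (BMDMs) of mice labelled as lacking KLF2 in myeloid cells (K2KO) and of their Cre controls (LysM). Members were the rows of the expression table whose symbol is Rab with a number and, where present, a letter, with pseudogenes left out, which gave 59 genes of the 23761 listed. The control mice were LysM Cre/Cre and the knockout mice LysM Cre/Cre KLF2 flox/flox, all 3 months old on a C57BL/6J background. Flushed marrow was grown into macrophages in medium conditioned by L929 fibroblasts, the libraries are labelled as vehicle, and total RNA was sequenced from 4 mice of each genotype. Both genotypes carry Cre on both copies of the lysozyme M gene (Lyz2), whose promoter drives it in myeloid cells, and Lyz2 itself was listed at only 11.5 to 22.5 FPKM over the 8 libraries. Values are FPKM, that is, fragments scaled to transcript length and to the mapped fragments of the library, so levels of different genes are compared per length.

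A Rab protein carries a prenyl anchor, sits on one kind of membrane while bound to GTP and there recruits effectors such as tethers and motors. Exchange factors (many with a DENN domain, or the TRAPP complexes) load it with GTP, TBC-domain proteins make it hydrolyse the GTP, and GDI carries the inactive form through the cytosol. In macrophages the sequence of Rab5 followed by Rab7 accompanies the maturation of phagosomes, Rab4 and Rab11 serve the return of receptors to the cell surface, and Rab10 and Rab27a serve delivery to it.

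The columns of the table give the genotype but not the mouse, and the libraries are called LysM0 to LysM3 and K2KO0 to K2KO3. Klf2, the targeted gene, was listed at 44.1, 52.9, 64.7 and 72.8 FPKM in LysM0 to LysM3 and at 45.5, 41.6, 59.2 and 59.3 FPKM in K2KO0 to K2KO3. The groups overlapped and Klf2 did not pass the test (log2 fold change -0.18, SE 0.17, limma adjusted p = 0.46), so the table does not check the genotype labels, and every direction given here is that of the libraries labelled K2KO against those labelled LysM. Defining markers of macrophages were abundant in both genotypes, with Cd68 at 1834 ± 129 FPKM (SD, n = 4) in LysM and 1779 ± 104 FPKM in K2KO, and the macrophage colony-stimulating factor receptor Csf1r at 524 ± 15.5 and 526 ± 53.2 FPKM. How many reads lie behind an FPKM is unknown. Relative sequencing depth, read from steps among the lowest values, was 0.936 to 1.44 times that of LysM0.

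Rab7, which takes late endosomes and phagosomes to fusion with lysosomes, had the highest level of the family, at 203 ± 4.16 FPKM (SD, n = 4) in LysM and 216 ± 11.8 FPKM in K2KO. Next came the early endosome gene Rab5c with a mean of 175 FPKM over the 8 libraries and the recycling endosome gene Rab11a with 159 FPKM, and the ranges of these neighbours overlapped. The ER-to-Golgi pair Rab1b (102 FPKM) and Rab1a (91.8 FPKM) overlapped each other and lay apart from the genes above and below them. Rab8b (66.2 FPKM), Rab11b (64.8 FPKM), Rab4b (61.6 FPKM), Rab14 (60.5 FPKM) and Rab2a (56.1 FPKM) followed, and each of these overlapped the next in order. Of the 59 genes 41 had a mean of at least 1 FPKM, 32 a mean of at least 10 FPKM and 4 a mean of at least 100 FPKM.

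**Figure D1:**
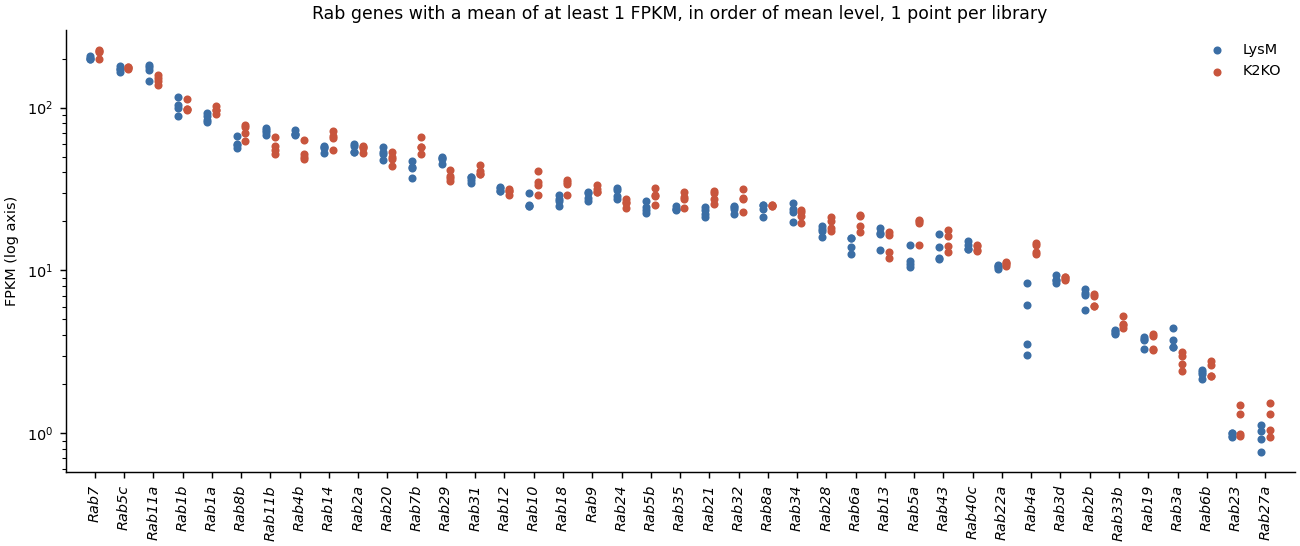
FPKM (log axis) of the 41 Rab genes with a mean of at least 1 FPKM in order of mean level, with 1 point per library, LysM in blue and K2KO in red. Rab7 stands highest at a mean of 210 FPKM, and Rab4a is the gene whose 2 colours lie farthest apart.

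The other 18 members stayed under a mean of 1 FPKM and were not tested. They were Rab3b, Rab3c, Rab9b, Rab15, Rab17, Rab25, Rab26, Rab27b, Rab30, Rab33a, Rab36, Rab37, Rab38, Rab39, Rab39b, Rab40b, Rab42 and Rab44, of which Rab3c, Rab9b and Rab39b were listed at 0 in all 8 libraries. Such a value was not read as absence, since the glycolytic gene Gapdh was listed at 0 to 0.4999 FPKM in these libraries while Actb ranged from 1962 to 2949 FPKM. Among the untested genes Rab44, a large Rab of granulated blood cells and osteoclasts, was at 0.259 to 0.447 FPKM in LysM and 0.4999 to 0.676 FPKM in K2KO, and Rab27b, the paralog of the granule gene Rab27a, at 0.018 to 0.0503 and 0.0693 to 0.127 FPKM, both without overlap. They were 2 of the 18 untested Rab genes, and in the other 16 the groups overlapped. Of all 12841 genes under the filter, 3.72% had groups that did not overlap. With the filter lowered to 0.1 FPKM, 10 of the 18 were tested and none was called, Rab44 among them (limma adjusted p = 0.0806), while 2 of the 10 had an unadjusted p under 0.05 in limma.

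The comparison of the genotypes asks how loss of KLF2 in myeloid cells bears on transcription. Values of log2(FPKM + 0.1) were fitted with limma over all 10920 genes with a mean of at least 1 FPKM, and a gene was called at a Benjamini-Hochberg adjusted p under 0.05 with an absolute log2 fold change over 0.26. Of the 41 tested Rab genes 7 were called higher in the libraries labelled K2KO and 4 lower, together 26.8%, where 18.4% of all tested genes were called. By direction the shares were 17.1% of the Rab genes called higher against 9.84% of all tested genes, and 9.76% called lower against 8.61%. The higher genes were Rab4a, Rab5a, Rab7b, Rab6a, Rab10, Rab18 and Rab21, and the lower ones Rab4b, Rab3a, Rab29 and Rab11b. The median log2 fold change was 0.09 over the tested Rab genes and 0.01 over all tested genes. The genotypes did not overlap for 12 Rab genes (29.3%), where this held for 23.1% of all tested genes. In bulk RNA a change in the share of cells that use a gene and a change in the RNA per cell cannot be told apart.

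The counts of calls changed when single libraries were left out and after correction for base composition. Without LysM3 none of the 7 higher genes and 1 lower gene stayed called, although 10 tested Rab genes still had an unadjusted limma p under 0.05 in the higher direction, and the share of all tested genes called was 3.09%. The counts of higher and lower Rab genes, each with the share of all tested genes called, were 2 and 1 without K2KO0 (6.47%), 3 and 1 without K2KO1 (6.65%), 1 and 1 without K2KO2 (4.54%), 8 and 4 without LysM0 (21.4%), 3 and 2 without LysM1 (6.74%), 6 and 3 without LysM2 (9.43%), and 10 and 3 without K2KO3 (26.0%). After each library was corrected for transcript GC content and length, 4 Rab genes were called higher (Rab4a, Rab5a, Rab7b and Rab6a) and 2 lower (Rab11b and Rab11a), where 3.75% and 4.47% (together 8.22%) of the 10886 genes with a GC value were called, and 5 of these 6 were among the original 11.

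**Figure D2:**
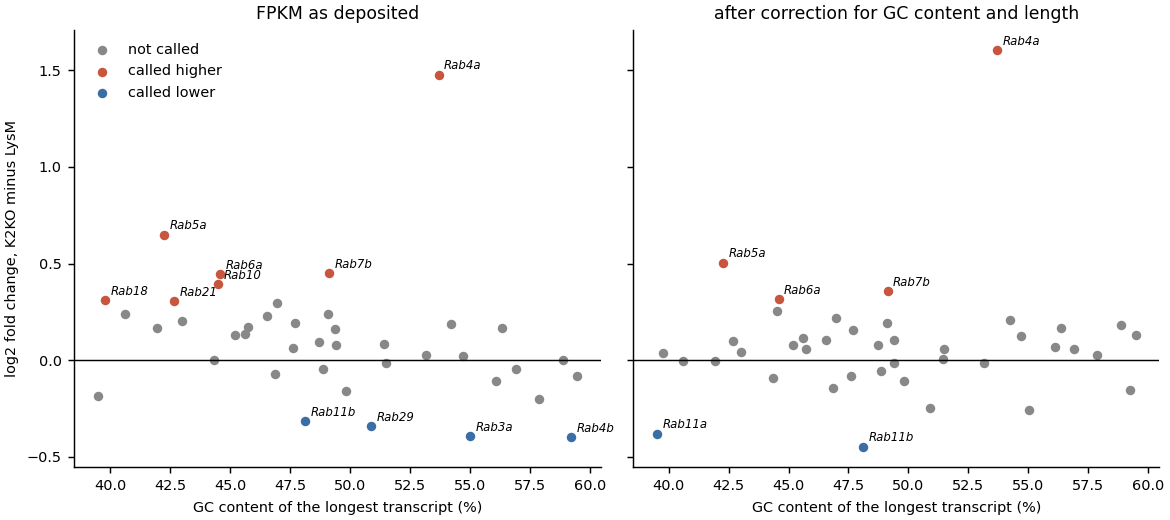
Log2 fold change (K2KO minus LysM) of the 41 tested Rab genes against the GC content in percent of the longest protein-coding transcript, on the left for FPKM as deposited and on the right after the correction, with called genes named. The slope on the left (Spearman rho -0.50 across the 41 genes) is not seen on the right (0.04), where Rab4a keeps its distance from the other genes. The correction subtracts a fit on GC content, so the loss of the slope follows from the method.

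Across the 41 genes, transcripts richer in GC had lower log2 fold changes (Spearman rho -0.50), as was the case across 10886 tested genes (-0.43), and these genes share the same 8 libraries and are not independent replicates. The 7 genes called higher had a median GC content of 44.5%, the 4 called lower 53.0% and those not called 49.0%. Rab4a, at 53.7% the most GC-rich of the higher genes, departed from this order.

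Promoters of 4 called genes are shown because they are the 2 higher and the 2 lower genes of lowest adjusted p for which a promoter entry was at hand. Each runs from 250 bases before to 50 bases after the start of the gene, 5′ to 3′ on the strand of the gene, from RefSeq on GRCm38.p6, and capitals mark CACCC on either strand (GGGTG on the other), the kind of box that KLF proteins bind, and CACGTG, the E-box core. They lie at chr17:53478984-53479283 on the plus strand (Rab5a), chr7:100607336-100607635 on the plus strand (Rab6a), chr1:131867027-131867326 on the plus strand (Rab29) and chr7:27178834-27179133 on the minus strand (Rab4b).
Rab5a: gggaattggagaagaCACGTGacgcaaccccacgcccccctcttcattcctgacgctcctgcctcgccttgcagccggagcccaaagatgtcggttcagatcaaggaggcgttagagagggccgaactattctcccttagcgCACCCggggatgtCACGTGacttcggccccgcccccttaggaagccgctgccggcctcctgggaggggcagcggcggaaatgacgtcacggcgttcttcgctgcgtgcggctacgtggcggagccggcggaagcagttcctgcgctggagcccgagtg
Rab6a: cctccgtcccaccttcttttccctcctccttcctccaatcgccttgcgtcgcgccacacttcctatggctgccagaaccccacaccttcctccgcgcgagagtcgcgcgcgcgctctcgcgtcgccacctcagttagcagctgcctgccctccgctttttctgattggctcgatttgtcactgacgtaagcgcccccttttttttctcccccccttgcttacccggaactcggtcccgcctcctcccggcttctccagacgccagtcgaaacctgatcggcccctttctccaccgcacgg
Rab29: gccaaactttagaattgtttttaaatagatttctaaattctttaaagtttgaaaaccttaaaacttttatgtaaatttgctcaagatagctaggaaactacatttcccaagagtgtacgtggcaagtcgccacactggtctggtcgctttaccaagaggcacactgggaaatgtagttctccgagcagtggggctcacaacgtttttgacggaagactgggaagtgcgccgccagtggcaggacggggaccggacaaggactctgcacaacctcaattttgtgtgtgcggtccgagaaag
Rab4b: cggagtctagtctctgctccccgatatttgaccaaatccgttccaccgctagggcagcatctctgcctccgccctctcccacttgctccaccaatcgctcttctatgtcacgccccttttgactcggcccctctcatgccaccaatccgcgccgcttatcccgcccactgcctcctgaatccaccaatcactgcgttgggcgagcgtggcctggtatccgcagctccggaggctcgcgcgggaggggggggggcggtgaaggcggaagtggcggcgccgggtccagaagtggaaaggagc
Only Rab5a of these 4 held either motif, with 1 CACCC and 2 CACGTG. Of the 41 tested Rab genes 37 were matched to an entry. CACCC stood in 29 of them (78.4%), where 56.7% of all 27025 promoters of this length hold it, and was found in 3 of 4 genes called higher, 1 of 4 called lower and 25 of 29 not called. CACGTG stood in 5 of the 37 (13.5%) against 7.24% of all promoters, in 2 of 4 higher genes (Rab5a and Rab21), none of 4 lower genes and 3 of 29 not called. The 27025 promoters are not limited to tested genes, while the 37 are, so these shares do not compare like with like. A match is a string of letters in this window and says nothing of binding.

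Among the 10 tested genes of the ER and Golgi step, 2 were called higher and none lower (20.0%, where 18.4% of all tested genes were called), with a median log2 fold change of 0.12 (0.049 after the GC correction). Rab6a, which serves traffic within the Golgi and back to the ER, was at 15.8, 14.0, 15.8 and 12.7 FPKM in LysM0 to LysM3 and at 18.8, 21.6, 21.9 and 17.2 FPKM in K2KO0 to K2KO3. Every K2KO library lay above every LysM library (log2 fold change 0.44, SE 0.10, limma adjusted p = 0.0208; 0.32 after the GC correction), and the difference stayed when the 95.3% identical copy Gm13082, listed at 0.342 FPKM at most, was added in (exact two-sided permutation test, p = 0.0286, the smallest that 4 against 4 can give). The calls of Rab6a, Rab18, Rab21 and Rab11b were each kept in only 3 of the 8 fits that left out a library, and were lost without LysM1, LysM3, K2KO0, K2KO1 or K2KO2. Mrpl48, which overlaps Rab6a on the opposite strand, was called lower (log2 fold change -0.43), and the study's methods name a stranded library kit, while whether strand was used in computing the FPKM is not given in the sources used here. The neuronal paralog Rab6b was much lower, at 2.32 ± 0.12 FPKM (SD, n = 4) in LysM and 2.47 ± 0.263 FPKM in K2KO, and was not called.

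Rab18, which acts where the ER meets lipid droplets, was at 27.5, 26.6, 29.2 and 24.8 FPKM in the LysM libraries and at 34.1, 35.9, 35.2 and 29.1 FPKM in the K2KO libraries. The groups met at LysM2 and K2KO3, and the gene passed the test at a log2 fold change of 0.31 (SE 0.08, limma adjusted p = 0.0301) that was 0.04 after the GC correction. Rab1a, of ER-to-Golgi transport and early autophagosomes, had 86.6 ± 4.77 FPKM (SD, n = 4) in LysM and 97.0 ± 4.19 FPKM in K2KO and was not called (adjusted p = 0.0861). Rab1b (102 ± 11.2 and 102 ± 7.89 FPKM) and Rab2a (56.1 ± 3.32 and 56.1 ± 2.61 FPKM) had nearly equal means in both genotypes.

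The 7 genes of the early endosome and phagosome were all tested, and 2 were called higher and none lower (28.6%, where 18.4% of all tested genes were called). Their median log2 fold change of 0.16 (0.11 after the GC correction) was the highest of the 7 steps. Rab5a, which drives the fusion of early endosomes and young phagosomes, was at 14.4, 11.4, 11.0 and 10.5 FPKM in LysM0 to LysM3 and at 20.2, 19.5, 20.5 and 14.4 FPKM in K2KO0 to K2KO3. Its groups touched without overlapping, since K2KO3 stood just above LysM0 and the other K2KO libraries well above. Rab5a rose by a log2 fold change of 0.65 (SE 0.13, limma adjusted p = 0.0159; 0.50 after the GC correction), and lost the call without LysM3, K2KO0 or K2KO2. Its paralogs were not called: Rab5b had 24.4 ± 1.81 FPKM (SD, n = 4) in LysM and 28.8 ± 2.72 FPKM in K2KO (adjusted p = 0.0695), and Rab5c, the most abundant of the 3, had 173 ± 6.04 and 176 ± 2.33 FPKM. Rab5b shares 99.4% identity with the listed pseudogene Gm13991, and the sum of both was 25.7 FPKM in LysM and 33.7 FPKM in K2KO, with p = 0.0571 in an exact two-sided permutation test. Gm13991 alone had 1.32 ± 0.669 FPKM (SD, n = 4) in LysM and 4.98 ± 1.97 FPKM in K2KO. It was called higher (log2 fold change 1.87, limma adjusted p = 0.0135; 1.97 after the GC correction), so the value of Rab5b is uncertain.

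Rab21, which travels with integrins through early endosomes, was at 24.4, 21.4, 23.7 and 22.1 FPKM in the LysM libraries and at 29.8, 30.6, 27.4 and 25.7 FPKM in the K2KO libraries. The groups did not overlap (log2 fold change 0.31, SE 0.07, limma adjusted p = 0.0239), and after the GC correction the log2 fold change was 0.10. Rab31, which serves trans-Golgi to endosome traffic, is named after its values were seen as a gene whose groups did not overlap although it was not called, with 34.6 to 37.6 FPKM in LysM and 38.9 to 44.1 FPKM in K2KO (log2 fold change 0.16, adjusted p = 0.0839).

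**Figure D3:**
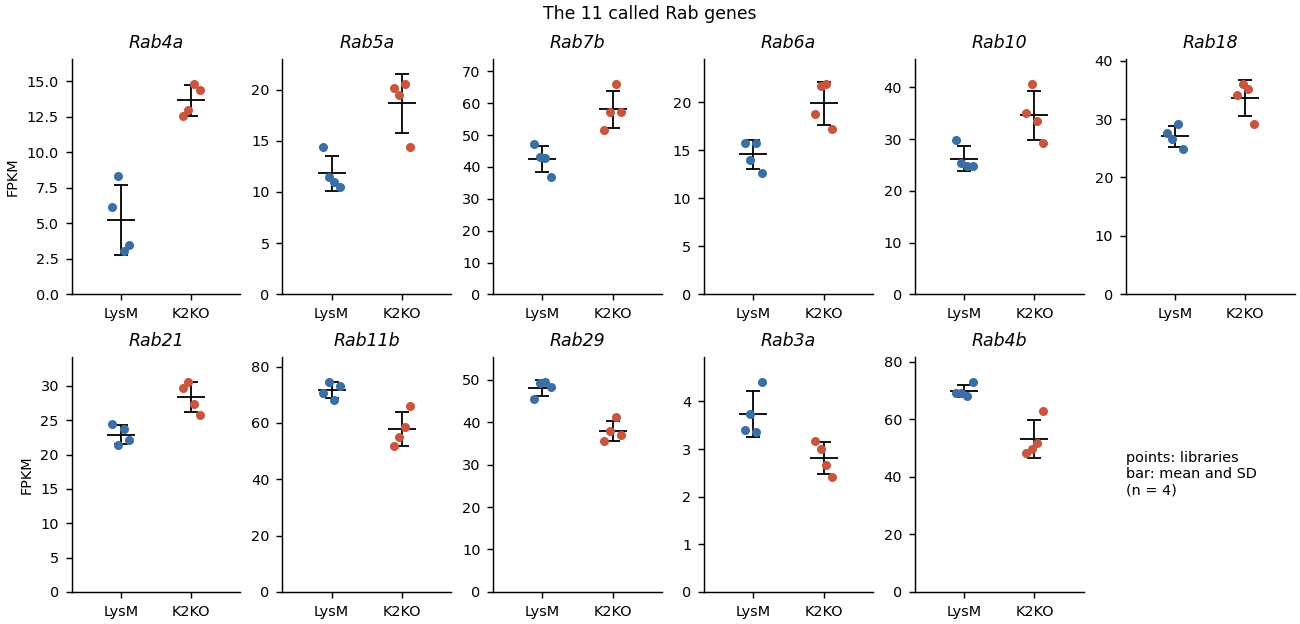
FPKM of the 11 called Rab genes in each library (points, 4 LysM and 4 K2KO), with the mean and SD as bars and each axis starting at 0. Rab4a moves from 3.02 to 8.35 FPKM in LysM to 12.5 to 14.8 FPKM in K2KO, the largest fold change of the 11, while Rab4b, Rab7b, Rab11b and Rab29 differ by more on the FPKM scale.

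Recycling was the step in which paralogs were called in opposite directions, with 1 of 6 tested genes higher and 2 lower (50%, where 18.4% of all tested genes were called) and a median log2 fold change of 0.0013 (-0.055 after the GC correction). Rab4a, of the fast route from early endosomes to the cell surface (ENSMUSG00000019478.15, chr8:123805985-123835287, plus strand), was at 6.15, 8.35, 3.02 and 3.51 FPKM in LysM0 to LysM3 and at 12.5, 12.9, 14.8 and 14.4 FPKM in K2KO0 to K2KO3. All K2KO libraries lay well above all LysM libraries, which themselves fell into a higher and a lower pair. Its mean was 2.60-fold higher in K2KO, the largest change of the tested Rab genes (log2 fold change 1.48, SE 0.28, limma adjusted p = 0.0133; 1.60 after the GC correction), and among the fits that each left out 1 library the call was lost only without LysM3 (limma adjusted p = 0.0586). It was also lost with no filter on low values (limma adjusted p = 0.0664) and in the ordinary least squares fit across all genes (adjusted p = 0.0531).

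Rab4b, its paralog on the same route (chr7:27168424-27178896, minus strand), was at 69.2, 69.2, 68.2 and 73.1 FPKM in the LysM libraries and at 48.4, 49.9, 51.7 and 63.1 FPKM in the K2KO libraries. LysM values lay close together and above all K2KO values, of which K2KO3 came nearest. Rab4b fell by 0.40 on the log2 scale (SE 0.09, limma adjusted p = 0.0178), the value was -0.15 after the GC correction, and the call was lost without LysM3, K2KO0, K2KO1 or K2KO2. Adding Gm21983, a listed gene that shares its transcript sequence and was at 2.36 FPKM at most, left the groups apart (exact two-sided permutation test, p = 0.0286). Within each library the log2 ratio of Rab4a to Rab4b was -3.47, -3.04, -4.45 and -4.34 in LysM0 to LysM3 and -1.94, -1.94, -1.80 and -2.12 in K2KO0 to K2KO3. Rab4b was thus the more abundant paralog in every library, and the gap between the 2 genes was smaller in K2KO by 1.88 on the log2 scale (1.76 after the GC correction).

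Rab11b, of the slow route through the recycling endosome (chr17:33742484-33760530, minus strand), was at 70.7, 74.6, 68.3 and 73.3 FPKM in LysM and at 51.8, 55.1, 58.5 and 66.0 FPKM in K2KO. The groups did not overlap, and Rab11b fell by 0.32 on the log2 scale (SE 0.08, limma adjusted p = 0.027) and by 0.45 after the GC correction. This value is uncertain, because the listed pseudogene Rab11b-ps2 is 99.8% identical over 654 bases and the sum of both overlapped between LysM and K2KO (104 ± 6.98 FPKM in LysM and 97.7 ± 5.48 FPKM in K2KO, SD, n = 4, with p = 0.2 in an exact two-sided permutation test). Rab11a, the most abundant recycling gene, was at 145, 171, 184 and 178 FPKM in LysM0 to LysM3 and at 138, 145, 159 and 152 FPKM in K2KO0 to K2KO3. Its groups overlapped through LysM0, AC147560.1 overlaps it on the same strand with 0 to 161 FPKM, and it was not called (log2 fold change -0.18, adjusted p = 0.145), while after the GC correction it was called lower at -0.38 (limma adjusted p = 0.0231). Rab14, of Golgi-endosome traffic, had 56.2 ± 2.43 FPKM (SD, n = 4) in LysM and 64.9 ± 6.96 FPKM in K2KO and was not called.

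As a share of the summed FPKM of all 59 Rab genes, the recycling step took 22.4, 24.4, 24.4 and 24.8% in LysM0 to LysM3 and 20.9, 20.9, 21.7 and 22.3% in K2KO0 to K2KO3. The ranges came close but did not overlap, with means of 24.0 ± 1.09% and 21.5 ± 0.665% (SD, n = 4). The share of the lysosome-related step, 4.37 ± 0.118% in LysM and 3.86 ± 0.258% in K2KO, did not overlap either, and those of the other 5 steps did. The sum over all Rab genes was 1652 ± 17.4 FPKM in LysM and 1706 ± 51.0 FPKM in K2KO, with overlap, and made up 0.311 ± 0.0176% and 0.361 ± 0.0185% of the summed FPKM of a library. The denominator moved as well, from 531755 ± 23776 FPKM in LysM to 473577 ± 23980 FPKM in K2KO. Against all listed genes the Rab share overlapped between the genotypes. Against protein-coding nuclear genes alone it was 0.362 ± 0.0183% in LysM and 0.417 ± 0.0196% in K2KO, without overlap.

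In the late endosome, lysosome and autophagy step 1 of 6 tested genes was called higher and none lower (16.7%, near the 18.4% of all tested genes), with a median log2 fold change of 0.02 (0.097 after the GC correction). Rab7b, which serves traffic from late endosomes to the trans-Golgi and the turnover of Toll-like receptors (chr1:131688695-131715439, plus strand), was at 47.1, 43.1, 42.8 and 36.9 FPKM in LysM0 to LysM3 and at 51.8, 57.4, 66.0 and 57.2 FPKM in K2KO0 to K2KO3. No library of either genotype reached the range of the other. Rab7b rose by a log2 fold change of 0.45 (SE 0.09, limma adjusted p = 0.017; 0.36 after the GC correction), and the call was lost without LysM3 or K2KO2. Rab7 itself was not called (log2 fold change 0.09, adjusted p = 0.278). Rab24, of autophagosome clearance, was named after its values were seen. It was at 27.5 to 32.0 FPKM in LysM and 24.2 to 27.3 FPKM in K2KO without overlap. Prelid1 overlaps Rab24 on the opposite strand, with 830 bases in common. It was at 190 to 253 FPKM in LysM and 185 to 223 FPKM in K2KO and was not called (log2 fold change -0.16). Whether strand was used in computing the FPKM is not given, so the values of Rab24 are uncertain. Rab24 was not called (limma adjusted p = 0.0625), and its log2 fold change of -0.20 turned to 0.029 after the GC correction.

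Of the lysosome-related step 2 genes were tested, and 1 was called (50%, where 18.4% of all tested genes were called). The median log2 fold change of the 2 was -0.075 (-0.045 after the GC correction). Rab29, which recruits the kinase LRRK2 (chr1:131867224-131872887, plus strand), was at 45.4, 49.2, 49.5 and 48.4 FPKM in the LysM libraries and at 35.6, 37.9, 41.3 and 37.0 FPKM in the K2KO libraries. Each K2KO library lay below each LysM library, and Rab29 was called lower with a log2 fold change of -0.34 (SE 0.06, limma adjusted p = 0.0126). It was the only called Rab gene that stayed called whichever library was left out. After the GC correction its log2 fold change was -0.25 with an adjusted p of 0.0277, short of the size threshold. Rab7b and Rab29 lie close together on chromosome 1, where Rab7b ends at position 131715439 and Rab29 starts at position 131867224, and they were called in opposite directions.

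Among 7 tested genes of secretion and the plasma membrane 1 was called higher and 1 lower (28.6%, where 18.4% of all tested genes were called), with a median log2 fold change of 0.08 that turned to -0.014 after the GC correction. Rab10, of exocytosis including the delivery of TLR4, was at 29.8, 25.3, 24.9 and 24.9 FPKM in LysM0 to LysM3 and at 35.1, 40.6, 33.4 and 29.1 FPKM in K2KO0 to K2KO3. LysM0 and K2KO3 overlapped, and the log2 fold change of 0.39 (SE 0.10, limma adjusted p = 0.0316) was 0.25 and no longer called after the GC correction. The call was kept in only 2 of the 8 fits that each left out a library, those without LysM0 or K2KO3. Rab10os, an overlapping gene on the opposite strand, was at 6.77 to 8.96 FPKM and was not called. Rab8a, of Golgi to surface traffic, lies 0.135 Mb from Klf2 on chromosome 8 and had 23.8 ± 1.73 FPKM (SD, n = 4) in LysM and 25.1 ± 0.251 FPKM in K2KO, which was not called. Rab8b, which shares transcript sequence with the listed gene Gm20689, had 60.6 ± 4.30 and 71.8 ± 6.91 FPKM (adjusted p = 0.0689), and Rab27a, of granule docking, had 0.959 ± 0.156 and 1.21 ± 0.264 FPKM (adjusted p = 0.302).

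Rab3a, of regulated secretion (chr8:70754679-70758677, plus strand), lies 1.56 Mb from Klf2 and was at 3.40, 3.73, 3.37 and 4.41 FPKM in the LysM libraries and at 3.17, 3.00, 2.66 and 2.42 FPKM in the K2KO libraries. The groups were close without overlapping, and the call (log2 fold change -0.39, SE 0.12, limma adjusted p = 0.0428) was kept in only 1 of the 8 fits that each left out a library, the one without LysM0. After the GC correction the log2 fold change was -0.26 with an adjusted p of 0.197. Its paralog of granules outside neurons, Rab3d, had 8.80 ± 0.426 and 8.96 ± 0.171 FPKM (SD, n = 4). None of the 3 tested genes of cilia and other roles was called, where 18.4% of all tested genes were called. Their median log2 fold change was 0.13 (0.079 after the GC correction).

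**Figure D4:**
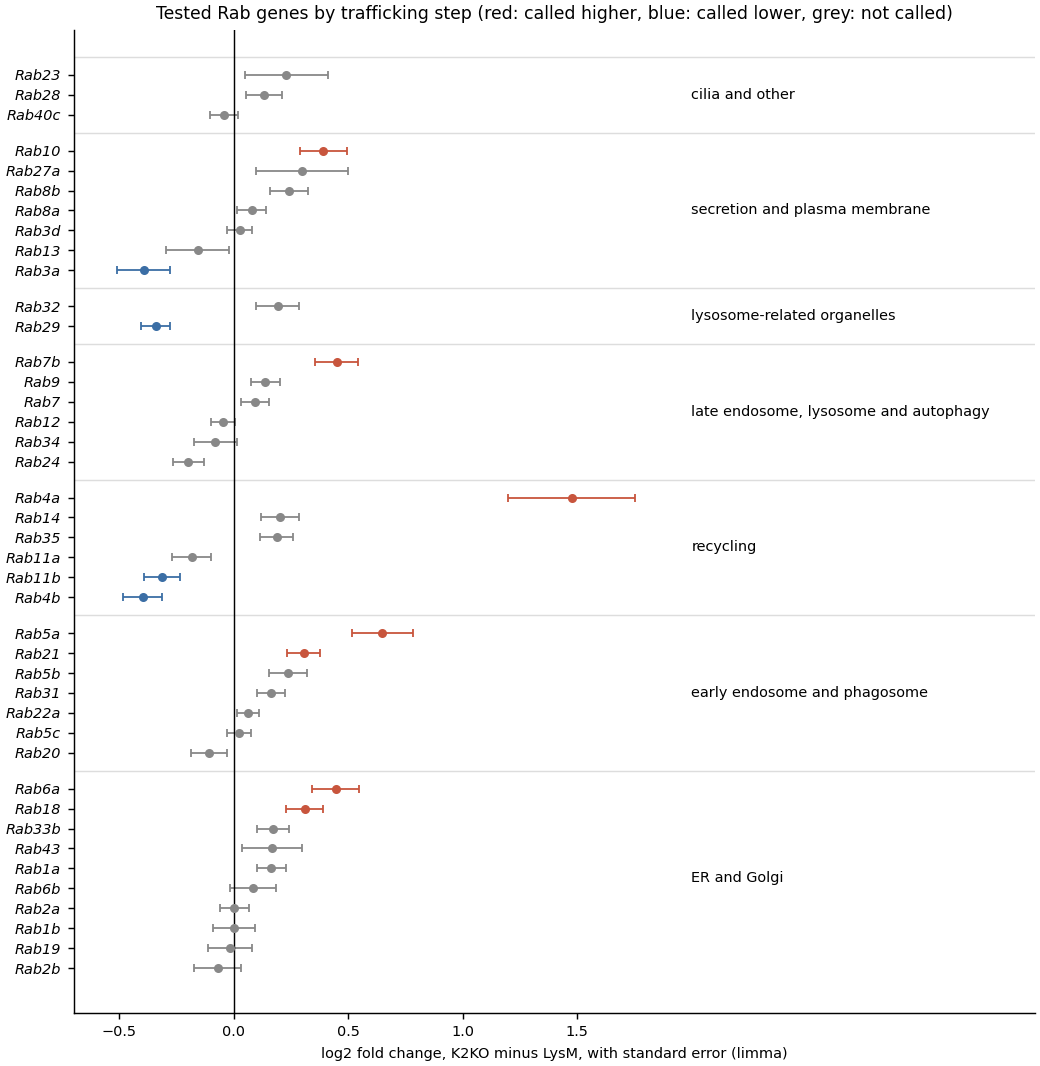
Log2 fold change (K2KO minus LysM) with its standard error from limma for the 41 tested Rab genes, grouped by trafficking step, with genes called higher in red, lower in blue and not called in grey. Recycling holds the widest spread, from -0.40 (Rab4b) to 1.48 (Rab4a).

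A ratio of paralogs within a library does not change with the scaling of that library. Of 12 pairs of tested paralogs the ratio did not overlap between the genotypes for 7, each at p = 0.0286 in the exact two-sided permutation test, the smallest that 4 against 4 libraries can give and not adjusted over the pairs. That is 58.3% of the pairs. The 23.1% of tested genes that were apart refers to single genes and is not a background for ratios. No share was computed over ratios of other gene pairs, with or without the GC correction, so an excess among paralogs was not tested. Of the 7 pairs 6 hold a gene that was itself called, so they repeat those calls in part. The pairs were Rab4a to Rab4b, Rab5a to Rab5b (higher by 0.41 on the log2 scale in K2KO), Rab5a to Rab5c (higher by 0.63), Rab6a to Rab6b (higher by 0.36), Rab7 to Rab7b (-0.36), Rab3a to Rab3d (-0.42) and Rab22a to Rab31 (-0.10). With the GC correction 4 pairs remained apart, those of Rab4a, Rab6a, Rab7 and Rab22a, and both Rab5a ratios had p = 0.0571 in the exact test. Pairs that share a gene, as in the Rab5 group, are not independent.

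**Figure D5:**
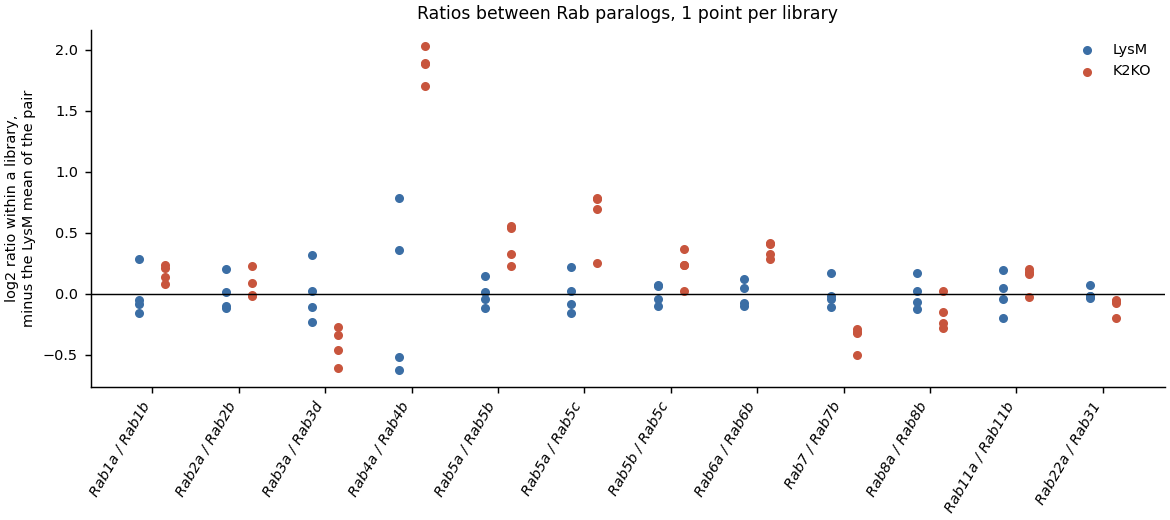
Log2 ratio of the 12 paralog pairs in each library minus the LysM mean of the pair, with LysM in blue and K2KO in red. The Rab4a to Rab4b ratio stands about 1.88 above the LysM mean in K2KO, and the remaining pairs stay within 1 on this scale.

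Rab4a lies 51.5 Mb from Klf2, and its neighbours within 200 kb were looked at after its values were seen. Ccsap, a centriole and spindle protein gene 5.54 kb away, was at 1.71, 1.77, 1.56 and 1.95 FPKM in LysM0 to LysM3 and at 3.89, 4.44, 3.79 and 4.46 FPKM in K2KO0 to K2KO3. It rose by a log2 fold change of 1.20 (SE 0.10, limma adjusted p = 0.000389), with little spread within either genotype. 2810455O05Rik, 3.27 kb away and under 1 FPKM on average, was at 0.279 to 0.637 FPKM in LysM and 0.665 to 0.894 FPKM in K2KO without overlap and was not tested. Gm20388, a long gene model that spans Rab4a on the same strand, was at 14.9 to 28.6 FPKM in LysM and 12.7 to 25.3 FPKM in K2KO and was not called, and reads shared by the models cannot be told apart. The tested genes Nup133, Abcb10, Taf5l and Urb2 on the far side of Ccsap were not called, with log2 fold changes of -0.06 to 0.14. Not every gene of this window is reported here, so the values given do not show how far the difference extends on either side of Rab4a.

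The proteins that load, inactivate, carry and read Rabs were taken from a list of 166 genes, of which 140 were tested. In all 17 were called higher and 11 lower (20.0%, where 18.4% of all tested genes were called), and after the GC correction 4 and 5 (6.43%, where 8.22% of all genes were called). Effectors and tethers gave 8 higher and 3 lower of 56 (19.6%, near the share of all tested genes), and 8.93% were called after the GC correction. Eea1, the Rab5 tether of early endosomes, was at 6.76, 5.39, 6.03 and 5.17 FPKM in LysM0 to LysM3 and at 8.40, 8.72, 8.73 and 7.49 FPKM in K2KO0 to K2KO3. Its groups did not overlap, and it rose by a log2 fold change of 0.51 (limma adjusted p = 0.0126). Kif16b, a kinesin that moves early endosomes (0.70), the actin motor Myo5a (0.55) and the retromer subunit Vps35 (0.47) were also higher, and these 4 were still called after the GC correction. Lower were the Rab7 effector Rilp (-0.39), the Rab8 effector Ehbp1l1 (-0.33) and Rilpl2 (-0.30), of which Ehbp1l1 was still called after the correction.

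Of 44 tested exchange factor genes 4 were called higher and 6 lower (22.7%, where 18.4% of all tested genes were called), and 9.09% were called after the GC correction, near the 8.22% of all genes. Madd, which activates Rab3 and Rab27, was at 20.0, 19.1, 20.1 and 19.8 FPKM in the LysM libraries and at 15.7, 14.9, 15.4 and 14.9 FPKM in the K2KO libraries. The groups stood far apart relative to their spread, and Madd was called lower with a log2 fold change of -0.37 (limma adjusted p = 0.00509; -0.43 after the GC correction). Trappc4 (-0.44) and Trappc6a (-0.40), subunits of TRAPP complexes, and the Rab35 exchange factor Dennd1c (-0.36) were lower as well, and Dennd4c (0.48), which acts on Rab10, Trappc8 (0.43) and Ric1 (0.35), which acts on Rab6, were among the higher ones. After the GC correction 4 were called lower, Madd, Trappc4, Dennd1c and Rab3il1 (-0.35, and -0.42 corrected), the last named after its values were seen, and none of the 4 higher ones was called.

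TBC-domain genes gave 4 higher and 1 lower of 33 (15.2%, below the 18.4% of all tested genes), among them Tbc1d15, which acts on Rab7 (0.49), Tbc1d23 (0.37), Tbc1d19 (0.35) and Rabgap1 (0.27), and on the lower side Tbc1d10b (-0.30). None of these was called after the GC correction. Of the 7 tested genes of prenylation and membrane cycling, Chm, the escort protein that presents new Rabs for prenylation, was at 1.58 to 1.92 FPKM in LysM and 2.05 to 3.19 FPKM in K2KO and was called higher (0.59, limma adjusted p = 0.0225). Rabac1, the prenylated Rab acceptor, had 408 ± 30.3 FPKM (SD, n = 4) in LysM and 311 ± 26.3 FPKM in K2KO and was called lower (-0.39, limma adjusted p = 0.0176), and neither was called after the correction. Gdi2, a GDI gene, had 162 ± 9.14 FPKM in LysM and 166 ± 12.4 FPKM in K2KO and was not called, and Chml stayed under a mean of 1 FPKM.

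Markers of cells that a marrow culture could hold were read beside these results. The summed FPKM of 10 macrophage markers was 4249, 4388, 4274 and 4394 in LysM0 to LysM3 and 3914, 3841, 4016 and 4037 in K2KO0 to K2KO3, lower in each K2KO library, with Cd68 the most abundant. As a share of each library's summed FPKM, which was itself 531755 on average in LysM and 473577 in K2KO, these markers made up 0.815% ± 0.0288 in LysM and 0.836% ± 0.0284 in K2KO (SD, n = 4), and the groups overlapped. The mean fell furthest in FPKM for Cd14, from 1028 ± 56.7 to 829 ± 118 FPKM, which was not called (limma adjusted p = 0.063), and next for Aif1, from 253 ± 68.0 to 156 ± 32.8 FPKM. Of these 10 genes Mertk was called higher and Aif1 and Lyz2 lower, where 18.4% of all tested genes were called, and all 3 calls were lost after the GC correction (limma adjusted p = 0.0919, 0.0819 and 0.0556). The calls of Mertk and Aif1 were each kept in 2, and that of Lyz2 in 4, of the 8 fits that left out a library. Neutrophil and granulocyte precursor markers summed to 252 ± 54.5 FPKM (SD, n = 4) in LysM and 253 ± 61.5 FPKM in K2KO, led by S100a9, with Ly6g, Cxcr2 and Ctsg under a mean of 1 FPKM and Camp called lower among 8 tested. Fibroblast markers summed to 0.551 ± 0.521 and 1.64 ± 1.21 FPKM, led by Dcn, and markers of B and T cells, dendritic cells, mast cells and basophils, and erythroid cells and megakaryocytes each summed to 5.44 FPKM at most in any library. Mean sums in LysM and K2KO were 3.16 and 4.45 FPKM for B and T cells and 1.57 and 2.69 FPKM for dendritic cells. They were 1.45 and 2.68 FPKM for mast cells and basophils and 1.89 and 3.19 FPKM for erythroid cells and megakaryocytes, all with overlap. As a share of summed FPKM, erythroid and megakaryocyte markers were at 0.000354% in LysM and 0.000669% in K2KO without overlap. The shares of the other classes overlapped. Osteoclast markers summed to 76.1 ± 10.6 and 65.9 ± 7.66 FPKM, led by Ctsk and Acp5, with Calcr at 0 throughout. The part of these shifts in the Rab values was not tested.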

How the data were processed

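The authors sequenced total RNA of BMDMs from 4 LysM and 4 K2KO mice and deposited 1 table of FPKM for 23761 genes, computed with Cufflinks. Their methods name TopHat2 and mm10, while the submitters' processing notes list STAR, Cufflinks and Cuffdiff; versions and the annotation release are not given in the sources used here. FPKM carry no read counts, so no count model or counting interval was used.

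From the deposited FPKM, log2(FPKM + 0.1) of the 10920 genes with a mean of at least 1 was fitted with limma 3.58.1 (lmFit, eBayes with an intensity trend, R 4.3.3), with no covariate and Benjamini-Hochberg adjustment over all tested genes. The thresholds (adjusted p under 0.05, absolute log2 fold change over 0.26) are those of the study. Ratios of paralogs and sums with copies were compared by exact two-sided permutation of the 8 libraries (35 splits). Gene loci, transcript length and GC content came from GENCODE M21 on GRCm38 (23645 genes matched), and copies from blastn 2.17.0 (at least 95% identity over 200 bases). The GC correction subtracts from each library a local regression (span 0.3) on GC content and length of the longest protein-coding transcript.

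The Rab genes, the trafficking steps, the partner list and the markers were chosen with earlier results of these data known. Named were Klf2, every called Rab gene and its family members, the 10 most abundant Rab genes, Rab27a as a landmark, Rab genes within 5 Mb of Klf2, untested members, up to 4 called partners per class and direction, and Gdi2 and the escort genes. Some genes that this rule would name are not reported here. Rab31, Rab24, the Rab4a neighbours, copies, overlapping genes, Gapdh and Actb were named after their values were seen. Alternatives were pseudocounts of 1 and 0.01, a filter at 0.1 FPKM or none, quantile and upper-quartile scaling, limma without trend, ordinary least squares, an absolute log2 fold change over 1, the GC correction, a replicate block and each library left out. For the partner genes these were added after seeing the data. Tested on simulated data for 10920 genes, the fit recovered 85.0% of genes changed by 1 and 64.0% of those changed by 0.5 on the log2 scale.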

Additional observations from a re-analysis of the deposited data

Results flagged for a closer look

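In 3 of 50 groups of 4 libraries (the named Rab genes and Klf2 in each genotype), 1 library stood apart from the other 3 by Dixon's ratio, where chance marks about 1 in 20, or 2.5 of 50. Rab5a was at 14.4 FPKM in K2KO3, with the other K2KO libraries at 19.5 to 20.5 FPKM. Rab10 was at 29.8 FPKM in LysM0, with the other LysM libraries at 24.9 to 25.3 FPKM. Rab1b was at 114 FPKM in K2KO1, with the other K2KO libraries at 97.1 to 98.3 FPKM.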

How the results depend on the processing

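Against 7 higher and 4 lower Rab genes with 2014 called genes in all, the counts were 0, 1 and 483 with no filter on low values, 0, 2 and 746 with ordinary least squares, 1 (Rab4a), 0 and 110 at an absolute log2 fold change over 1, 4, 2 and 895 with the GC correction, and 2, 2 and 714 with the replicate block and the GC correction together. Where no Rab gene was called higher, 20 (no filter) and 15 (ordinary least squares) had an unadjusted p under 0.05 in that direction, and at a log2 fold change over 1 5 lower genes had one. Quantile normalization gave 10 higher and 2 lower Rab genes, with 835 higher and 699 lower among all genes tested, and upper-quartile scaling 8 and 3, with 1335 higher and 748 lower genes overall against 1074 and 940. Partner genes called numbered 28, and 10, 15, 15, 0, 9 and 5 with no filter, quantile normalization, ordinary least squares, a log2 fold change over 1, the GC correction, and the block with the GC correction. Paralog pairs apart between the genotypes numbered 7, and 4 with the GC correction.

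Leaving out 1 library at a time gave 0 (without LysM3) to 10 (without K2KO3) higher and 1 to 4 lower Rab genes, 337 to 2837 called genes in all, 6 to 40 partner genes, and 7 to 9 paralog pairs. The median Rab log2 fold change was 0.08 to 0.13 and the difference in the Rab share of summed FPKM 0.0433 to 0.058 percentage points. Of 480 log2 fold changes of the 24 named Rab genes under these alternatives 353 kept their direction and side of the threshold, 91 lost the call, 10 gained one and 26 changed sign, none of the last in the 11 called genes. Sign changes were in genes that were not called: Rab1b (0.13 with quantile normalization, 0.044 with upper-quartile scaling, 0.18 with the GC correction, and -0.065 to 0.063 with a library left out), Rab2a (-0.091 with the GC correction, and -0.023 to 0.035 with a library left out), Rab1a (-0.0058), Rab8b (-0.0059) and Rab8a (-0.015) with the GC correction, Rab3d (-0.018 with quantile normalization, -0.014 with the GC correction) and Rab6b (-0.020 with quantile normalization). The values with the GC correction were the same with the block added. The causes were not tested.

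The labels number the mice, but the column numbers do not name the mouse. Between libraries of the same column number, deviations from the genotype means had correlations of -0.07, 0.02, 0.07 and -0.06. Weak correlations of this kind cannot exclude a pairing, so whether the samples were paired is not known. The replicate block gave 7 higher and 3 lower Rab genes and 2057 called genes in all. Of the 18 Rab genes under 1 FPKM, 10 were tested at the filter of 0.1 FPKM and none was called in limma; the depth behind an FPKM is unknown.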

Other observations

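K2KO3 was the K2KO library nearest to the LysM range for 7 of the 11 called Rab genes, and LysM0 the LysM library nearest to the K2KO range for 6 of them. AC147560.1, a listed gene that overlaps Rab11a on the same strand, ranged from 0 FPKM in 4 libraries to 61.9 FPKM in LysM3 and 161 FPKM in K2KO2. Gm20689, which shares transcript sequence with Rab8b, was at 4.75 to 5.84 FPKM in LysM and 7.76 to 19.0 FPKM in K2KO.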
